A study of Mus musculus with 2 samples.

Results

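Ribosomal protein genes were followed by the chromatin accessibility of their promoters in young and aged hematopoietic stem cells (HSCs). They were chosen by symbol: annotated mouse protein-coding genes whose symbols start with Rpl or Rps and a digit, together with Rpsa, Rplp0, Rplp1 and Rplp2, without the Rps6k kinases and without genes on chromosome X. This took 88 of 20807 autosomal protein-coding genes. Of these, 73 encode core proteins of the cytoplasmic ribosome (43 of the large and 30 of the small subunit), and 15 fit the symbol rule only: paralogs, a binding protein and genes with pseudogene names. The 4 X-linked genes Rpl10, Rpl36a, Rpl39 and Rps4x were left out of all counts below.

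C57BL/6 bone marrow was sorted for Lin- Sca-1+ c-kit+ cells that were CD150+ and negative for CD34, CD48, Flt3 and, as the label writes it, IL-7. The young library came from mice 10 weeks old and the aged library from mice 20 months old, and the labels name no treatment and no engineered allele for either. The study's methods describe female mice. There was 1 single-cell ATAC-seq library per age. The number of mice behind each is not given in the sources used here, so a difference between the ages has no measure of variation among mice behind it. No test was run. Intervals of counts, shares and ratios cover counting error only, and those of medians the spread over genes.

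The young library held 53786133 and the aged library 48333115 unique fragments. Of 5028 young and 3694 aged barcodes called as cells, 4887 and 3405 had 3000 to 20000 fragments in peaks and were used, and 26 barcode sequences occurred in both sets. FPM below stands for fragments per 1000000 autosomal fragments of the kept cells. A fragment is the DNA between 2 cuts of the transposase. Fragments shorter than 147 bp, the DNA of 1 nucleosome, are called short, and those of 147 to 294 bp mono-nucleosome fragments. Short fragments made up 59.9% of autosomal fragments in young cells and 55.1% in aged cells, and fragments within 1 kb of any coding start 28.2% and 26.6%. Among 8 HSC marker promoters, Kit lay at 36.2 and 33.1 and Hlf at 25.2 and 23.3 FPM in the young and aged libraries, while Mecom lay at 0.367 and 0.370 at the annotated gene end, the 1 below the count minimum, and at 26.8 and 25.3 at its principal start, 38275 bp away. Of the 7 markers above the minimum, 5 were lower in the aged library and 2 higher, namely Slamf1, which encodes the sort marker CD150 (5.02 and 6.63, log2 ratio 0.40, 0.14 to 0.66), and Procr (10.3 and 11.6, 0.18, −0.012 to 0.36). The promoters of 4 T cell, 4 B cell and 4 granulocyte-monocyte markers reached at most 4.04 FPM, and those of 4 erythroid markers at most 18.5 (Epor). All 4 T cell markers gave lower values in the aged library, with Cd4 at 73 young and 19 aged fragments (log2 ratio −1.51, interval −2.38 to −0.82) and a ratio of sums of 0.693 (0.563 to 0.852) over Cd4 and Lck, the 2 of 4 above the minimum. Of the 3 B cell markers above the minimum, 1 was lower in the aged library (log2 ratio −0.78) and 2 were higher, by at most 0.23. Of the granulocyte-monocyte markers, Mpo was lower and Elane higher in the aged library with intervals that excluded 0, each at under 100 fragments per library. The part of such cells in the values below was not tested.

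Ribosomal proteins bind ribosomal RNA in the nucleolus and form the small subunit, which reads the mRNA, and the large subunit, which joins amino acids. Their genes are active in nearly all cells and lie scattered over the genome. Their mRNAs typically start at a cytosine followed by a run of pyrimidines, the 5′ terminal oligopyrimidine (TOP) tract, through which mTOR signalling adjusts their translation. HSCs are known for a low and tightly held rate of protein synthesis, and loss of 1 copy of several of these genes causes Diamond-Blackfan anemia in humans.

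A start from RefSeq (GRCm38.p6, the same build as mm10) was matched by symbol for 53 of the 73 core genes and is called the listed start. A tract was counted where a C within 5 bases of that start opened a run of at least 5 C or T. The stretches below hold 40 bases before the listed start and 20 bases from it on, with the tract in capitals where one was found. The first 5 are the core genes with the highest promoter accessibility, the next 4 are among the 8 with the lowest aged-to-young ratio, and the next 2 are among the 8 with the highest ratio. Rpl3l, the muscle paralog of Rpl3, is shown for contrast.
Rps19 (chr7:24884636-24884695, + strand): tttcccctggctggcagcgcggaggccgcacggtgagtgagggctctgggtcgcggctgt
Rpl37 (chr15:5116573-5116632, + strand): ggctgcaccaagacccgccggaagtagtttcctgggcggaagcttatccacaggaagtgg
Rpl13a (chr7:45128726-45128785, - strand): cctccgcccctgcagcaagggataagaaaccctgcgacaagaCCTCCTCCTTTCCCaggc
Rpl27a (chr7:109519155-109519214, + strand): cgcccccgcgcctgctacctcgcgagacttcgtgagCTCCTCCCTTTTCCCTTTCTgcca
Rps21 (chr2:180257339-180257398, + strand): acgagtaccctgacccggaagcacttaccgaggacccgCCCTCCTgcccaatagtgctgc
Rps12 (chr10:23787190-23787249, - strand): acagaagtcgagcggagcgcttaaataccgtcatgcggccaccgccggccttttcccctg
Rps23 (chr13:90923082-90923141, + strand): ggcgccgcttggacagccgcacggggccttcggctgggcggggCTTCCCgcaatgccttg
Rps3a1 (chr3:86142649-86142708, - strand): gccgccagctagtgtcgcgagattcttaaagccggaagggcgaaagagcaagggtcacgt
Rplp2 (chr7:141447611-141447670, + strand): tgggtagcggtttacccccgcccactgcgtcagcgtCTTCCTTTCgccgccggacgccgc
Rpl31 (chr1:39367811-39367870, + strand): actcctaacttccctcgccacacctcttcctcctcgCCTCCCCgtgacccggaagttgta
Rpl37a (chr1:72711220-72711279, + strand): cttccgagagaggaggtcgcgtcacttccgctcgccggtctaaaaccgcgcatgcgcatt
Rpl3l (chr17:24727786-24727845, + strand): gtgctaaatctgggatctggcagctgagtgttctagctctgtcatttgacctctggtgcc

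Tracts were found in both the low-ratio and the high-ratio genes shown, and the most accessible gene, Rps19, had none within 5 bases of its listed start. Runs of C and T that open further away, as in the printed stretches of Rps19 and Rps12, were not counted. The shares below and the split of ratios by tract therefore depend on where the start is listed. Of the 53 core genes with a listed start, 24 (45.3%) had a tract, against 19.0% of 15687 genes of all kinds and 19.7% of the 6178 listed genes among the upper promoters, those at or above the median level. The longest tract, 20 bases, belonged to Rpl27a. The ETS motif CCGGAAG stood in 41.5% of core windows of 300 bases (250 before and 50 after the start, both strands), against 12.6% of all and 21.7% of upper windows, and it can be read in the stretches of Rpl37, Rps21, Rps3a1 and Rpl31 above. The YY1 motif AANATGGC stood in 17.0%, 6.71% and 10.2%, in the same order.

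Other motifs were at or below the shares of accessible promoters. The SP/KLF motif GGGCGG stood in 58.5% of core windows, 49.2% of all and 72.4% of upper windows, CCAAT in 30.2%, 38.3% and 41.9%, the E-box CACGTG, which Myc can bind, in 9.43%, 8.12% and 10.7%, and the NRF1 motif in 9.43%, 7.06% and 13.0%. TATAAA stood in 5.66% of core windows, 13.0% of all and 5.65% of upper windows, and in 0 of 53 in the 50 bases before the start. The median CpG content, observed over expected, was 0.925 in core windows, 0.615 in all and 0.822 in the upper promoters. Core genes with a tract had a median log2 aged-to-young ratio of −0.090 (n = 24) and those without −0.12 (n = 29), and for the ETS motif the medians were −0.089 with it (n = 22) and −0.12 without (n = 31). These are counts of letters, not of bound sites.

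Accessibility was measured as fragments with at least 1 end within 1 kb of the gene's annotated 5′ end, in FPM. All windows have the same length, but levels compare only roughly between genes. Of the core windows, 15 also hold another coding start, and 6 are centred more than 1 kb from the principal start. The core genes had a median of 27.7 FPM in the young library (range 0.591 to 60.8) and 25.6 in the aged library (0.661 to 53.6). Of the 73, 62 lay at or above the median level of promoters and 7 in the top 10%, so most were well accessible without standing at the top of the genome.

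**Figure D1:**
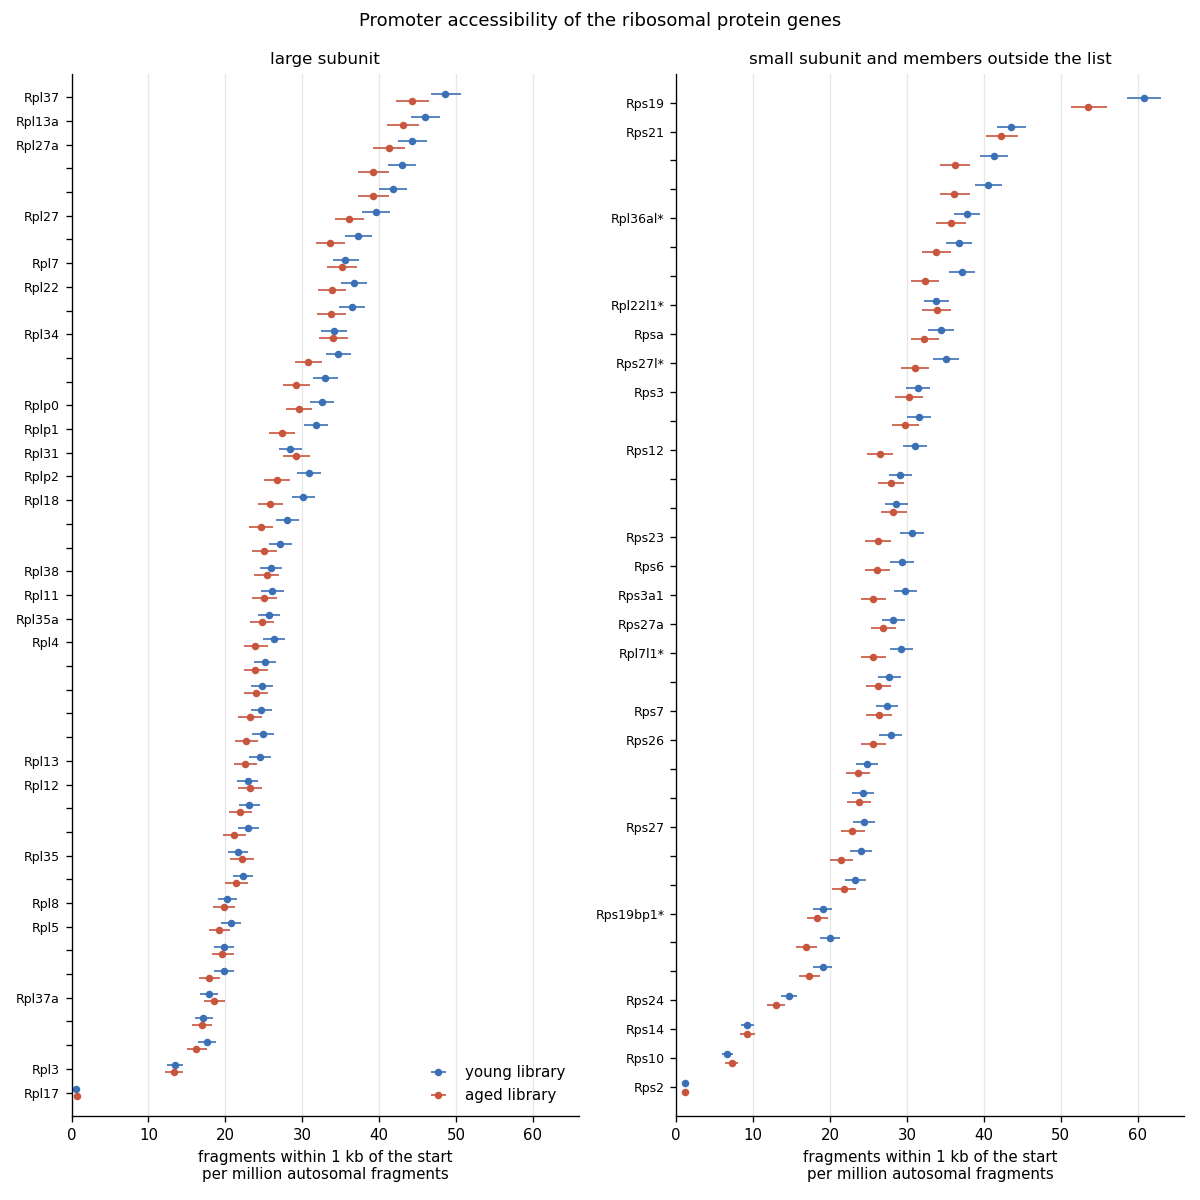
Fragments within 1 kb of the start in FPM (x axis) for the 78 members with at least 50 fragments (rows, ordered by level, with the names of those described in the text), young library in blue and aged library in red, with exact 95% Poisson intervals as bars. Asterisks mark the 5 members outside the core list. Rps19 stood highest in both libraries and Rpl17 lowest, and 70 of the 78 members had the aged point to the left of the young point.

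Rps19, a small subunit protein and the gene most often mutated in Diamond-Blackfan anemia, had the most accessible promoter of the set. It gave 60.8 FPM in the young library (2984 fragments) and 53.6 in the aged library (2028 fragments), a log2 ratio of −0.18 (95% interval −0.26 to −0.10). It was followed by Rpl37, a zinc finger protein of the large subunit, at 48.6 and 44.3, by Rpl13a, which can leave the ribosome to repress inflammatory mRNAs, at 46.0 and 43.1, by Rpl27a at 44.3 and 41.2, and by Rps21 at 43.5 and 42.3. In each of these 5 the aged library was the lower one, and in Rps21 the interval of the log2 ratio, −0.14 to 0.05, held 0.

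Some of the lowest levels belong to windows set away from the main start. In 6 core genes the 5′ end of the gene annotation lies more than 1 kb from that of the principal transcript: 27498 bp in Rps14, 8462 bp in Rpl3, 3593 bp in Rps24, 2614 bp in Rpl18, 1994 bp in Rps2 and 1919 bp in Rpl17. Rps2, which lines the mRNA entry of the small subunit, gave 1.12 young and 1.16 aged FPM at the gene end, and 35.9 and 34.2 at the principal start. Rpl17, at the exit of the peptide tunnel, gave 0.591 and 0.661 (29 and 25 fragments), and 20.5 and 19.1 at the principal start. Rps14, whose loss underlies the anemia of the human 5q- syndrome, gave 9.24 and 9.17, and 37.7 and 33.3 at the principal start.

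Rps10 is a further case, since RefSeq places its start 1425 bp from the one annotated here. It gave 6.63 and 7.19 FPM at the annotated end and 22.2 and 21.5 at the RefSeq start. At principal starts, the 73 core promoters ranged from 6.63 (Rps10) to 60.9 in the young library and from 7.19 to 53.7 in the aged library. Rps10, Rpl17 and Rps2, which have 3 of the 8 highest aged-to-young ratios below, had lower ratios at these other starts, namely −0.051 (−0.18 to 0.080), −0.10 (−0.24 to 0.038) and −0.070 (−0.17 to 0.034).

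The aged library was slightly lower at most of the set. Of 88 members, 78 passed a minimum of 50 fragments over both libraries, all 73 core genes among them. Their median log2(aged / young), after 1 fragment was added to each count, was −0.094 (95% interval over members −0.12 to −0.072), with 70 members below 0 and 8 above. Summed over the 78, FPM in the aged library were 0.928 times those in the young library (0.920 to 0.937), and the set took 0.220% of young and 0.204% of aged fragments. No member was past 1.2-fold in either direction. Among all 15467 promoters that passed, 10.4% were past 1.2-fold with the aged library higher and 7.65% with it lower, and among the 7734 upper promoters, where counting error is smaller, 0.53% and 2.96%.

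The same shift was present at promoters at large. All promoters had a median of −0.086 and the upper promoters −0.115 (interval −0.117 to −0.112), and 9.54% of the upper promoters lay above 0, against 9.59% of the core genes. By ratio, 43 core genes lay below the median of all promoters, and the interval of 68 of 73 held the upper median, as did that of 83.5% of the upper promoters. The interval excluded 0 in 31 of 73 (42.5%), all with the aged library lower, and held 0 in 42. Among the upper promoters it did so with the aged library lower in 52.2% and higher in 1.62%, and among all promoters in 33.1% and 10.3%, so the core share lay between these backgrounds. With fragments at all promoters as the scale, the members' median became −0.012 (−0.039 to 0.011) and 25 of 78 members changed sign, so the direction of a single member depends on that scale. The libraries also differed in the share of fragments at promoters and in the share of short fragments, given above, and the part of either in these values was not tested.

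In fragments of any length both subunits had about the same median, −0.10 over 43 large subunit genes (interval −0.12 to −0.053) and −0.094 over 30 small subunit genes (−0.17 to −0.066). In short fragments the medians were −0.026 (−0.060 to 0.021) and −0.080 (−0.12 to −0.027), with intervals that overlapped. The core genes lie on 18 chromosomes. The 14 on chromosome 7, the most on any, had a median of −0.11, and upper promoters of that chromosome −0.12.

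The 8 core genes with the lowest ratios, chosen by these same values, all had intervals below 0. So did 42.5% of all core genes and 52.2% of the upper promoters. Of the 8, Rps12 gave 31.0 young and 26.5 aged FPM (log2 ratio −0.23), Rps23, at the decoding site, 30.6 and 26.2 (−0.22), and Rps3a1 29.8 and 25.6 (−0.22). Rpl18 gave 30.1 and 25.8 at the gene end (−0.22) and 28.4 and 25.6 at the principal start (−0.15, −0.27 to −0.031).

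The acidic stalk proteins Rplp1 and Rplp2, which recruit translation factors to the large subunit, were both in this group. Rplp1 gave 31.8 young and 27.4 aged FPM (−0.21, −0.33 to −0.10) and Rplp2 30.9 and 26.7 (−0.21, −0.33 to −0.095). Rplp0, which anchors them on the ribosome, gave 32.5 and 29.5 (−0.14, −0.25 to −0.028). All 3 stalk genes thus had the aged library lower, by less than 1.2-fold. So did 66 of the 73 core genes, and 6996 of the 7734 upper promoters were lower in the aged library by any amount.

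Rpl3, which builds part of the peptidyl transferase center, stood apart at its principal start and was singled out after its values were seen. At the gene end, near the start of Syngr1, it gave 13.5 young and 13.3 aged FPM (−0.019, −0.19 to 0.15). At the principal start, 8462 bp away, it gave 32.0 and 25.1 (−0.35, −0.47 to −0.24). It was the only member past 1.2-fold at principal starts, with the aged library lower, where 7.63% of all promoters and 2.86% of the upper promoters were past it in that direction and 10.3% and 0.505% in the other.

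At the other end, the aged library was level with or above the young one. Apart from Rpl17, Rps10 and Rps2, the highest core ratios were those of Rpl37a (17.9 and 18.6 FPM, log2 ratio 0.057, −0.088 to 0.20), Rpl31 (28.5 and 29.2, 0.037), Rpl35 (21.6 and 22.1, 0.037), Rpl12 (22.9 and 23.1, 0.016) and Rpl34 (34.1 and 34.0, −0.003). The genes just named and Rpl17 encode large subunit proteins, as do 43 of all 73 core genes. Rps10 and Rps2 encode small subunit proteins. Rpl31 and Rpl35 sit around the exit of the peptide tunnel. The interval of none of the 8 excluded 0. The windows of Rpl12 and Rpl35 also hold the starts of Lrsam1 and Arpc5l.

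The genes below are some of those mutated in Diamond-Blackfan anemia, and all are core genes. Rps10, another of them, is described above. Its ratio was 0.12 (−0.12 to 0.35) at the annotated end and −0.051 at the RefSeq start. The interval of Rps19 lay below 0, as given above. Rps24 gave 14.6 and 12.9 FPM at the gene end (−0.17, −0.34 to −0.007), in a window that also holds the start of Polr3a. At its principal start it gave 24.1 and 23.7 (−0.025, −0.15 to 0.10), with an interval that held 0. Rps26 gave 27.9 and 25.6 (−0.12, −0.25 to −0.005), also with an interval below 0. Rpl5 and Rpl11, which bind Mdm2 and so link ribosome assembly to p53, gave 20.7 and 19.2 (−0.11, −0.25 to 0.029) and 26.1 and 25.1 (−0.057, −0.18 to 0.065). Rps7 gave 27.4 and 26.3 (−0.056) and Rpl35a, which shares its window with the start of Iqcg, 25.6 and 24.7 (−0.052). No gene of this group had an interval above 0, and neither did any other core gene.

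Members with roles outside the ribosome, or with regulated roles in it, showed the same narrow range. Rps6, the substrate of the S6 kinases, gave 29.3 and 26.1 FPM (−0.17, −0.28 to −0.048). Rps3, also a DNA repair enzyme, gave 31.4 and 30.2 (−0.054), and Rpsa, also a laminin receptor, 34.4 and 32.3 (−0.093, −0.20 to 0.014). Rpl38, linked to the translation of Hox mRNAs, gave 26.0 and 25.4 (−0.033). Rps27a, made as a fusion with ubiquitin, gave 28.2 and 26.9 (−0.066), and Fau, a fusion with a ubiquitin-like protein outside the symbol rule, gave 27.6 and 25.5 (−0.11, −0.23 to 0.006).

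Of the paralogs in this paragraph, only Rpl3l was hardly accessible. Rpl22, needed for T cell development, gave 36.7 young and 33.8 aged FPM (−0.12, −0.22 to −0.013), and its paralog Rpl22l1 33.8 and 33.8 (0.003, −0.10 to 0.11). Rps27 gave 24.4 and 22.9 (−0.089, −0.22 to 0.037), and Rps27l, a p53 target, 35.1 and 31.0 (−0.18, −0.29 to −0.070). Against Rpl3, the muscle paralog Rpl3l gave 0.652 and 0.396 (32 and 15 fragments), under the minimum. Rpl7l1, a relative of Rpl7, gave 29.3 and 25.6 (−0.19, −0.31 to −0.075), Rpl36al, a close autosomal copy of Rpl36a, 37.8 and 35.7 (−0.082), and Rps19bp1, which encodes a protein that binds Rps19, 19.0 and 18.3 (−0.058).

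The other 10 members outside the core list were Rpl10-ps3, Rpl10l, Rpl36-ps4, Rpl36a-ps1, Rpl39l, Rpl3l, Rpl9-ps1, Rpl9-ps6, Rps12-ps3 and Rps27rt. Each gave 3 to 32 fragments in young cells and 2 to 20 in aged cells, 0.0612 to 0.652 and 0.0528 to 0.528 FPM. The 6 with pseudogene names, and other copies such as Rpl10l, resemble their parent genes closely, so reads may be split between them and their values are uncertain. All 10 lay below the lowest core promoter at a principal start, and none can be compared between the ages at this depth.

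Fragment length separated the promoters further. At core genes a median of 64.4% of fragments were short in young cells and 61.9% in aged cells, against 68.9% and 65.7% over the upper promoters, and the short share was lower in the aged library in 65 of 73 (89.0%), against 93.8% of the upper promoters and 88.9% of all. The highest short shares were those of Rpl22 (81.7% and 78.2%), Rpl18 (81.2% and 81.9%), Rpl27 (80.2% and 79.4%), Rplp0 (79.3% and 78.8%) and Rpl13a (79.3% and 73.9%). The Rpl18 window lies at the gene end, 2614 bp from its principal start. The lowest, apart from the displaced windows of Rps2, Rpl17 and Rps14, were those of Rpl4 (43.8% and 40.2%) and Rpl35a (43.1% and 46.0%), whose windows also hold the starts of Zwilch and of Iqcg.

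Each length class was then scaled to its own total. In short fragments the median log2 ratio of the 78 members was −0.044 (−0.075 to −0.012), with 49 below 0 and 29 (37.2%) above, against 23.6% above 0 among the upper promoters and 36.8% among all. Only Rpl7l1 was past 1.2-fold, lower in the aged library (−0.34). All promoters had a median of −0.047 and the upper promoters −0.062. Of all promoters, 11.0% were past 1.2-fold higher and 9.23% lower, and 0.737% and 2.37% of the upper promoters. The interval in short fragments excluded 0 in 9 core genes (12.3%), all with the aged library lower, against 19.7% lower and 2.38% higher among the upper promoters and 14.8% and 8.2% among all. This median changed sign to 0.00088 with fragments at all promoters as the scale.

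In mono-nucleosome fragments the median was lower, −0.15 (−0.20 to −0.11), with 62 members below 0 and 16 (20.5%) above, against 19.4% above 0 among the upper promoters and 35.4% among all. The medians over all promoters and the upper promoters were −0.083 and −0.125, and that of the members stayed below 0 on the scale of all promoters, at −0.072 (−0.12 to −0.028). That scale moves every promoter by the same amount and put the median of all promoters at −0.00245. The upper promoters, lower than all promoters before it, therefore stayed below 0 too. The aged library was past 1.2-fold lower in 17 members (21.8% of 78), where 15.3% of all promoters and 13.6% of the upper promoters were, and past it higher in Rpl17 alone, at 15 young fragments, where 11.2% and 0.84% were. Within a member, the mono-nucleosome ratio lay above the short one in 21 of 78 (26.9%), against 34.7% of the upper promoters and 42.1% of all, with a median difference of −0.075 (−0.15 to −0.034). Over the upper promoters that difference was −0.060.

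The members with the lowest mono-nucleosome ratios included Rpl13 (20.1 young and 14.6 aged FPM of the class, −0.46, −0.73 to −0.20), Rps12 (28.0 and 20.6, −0.44, −0.67 to −0.22), Rpl18 (14.7 and 10.9 at the gene end, −0.43) and Rpl8 (18.3 and 13.9, −0.40, −0.68 to −0.13). Rpl13 and Rpl8, both large subunit proteins, were named after their values were seen. Rps12 was low in both classes, at −0.14 in short fragments, while Rpl13 lay at −0.013 and Rpl8 at 0.16 in short fragments. Of the 17, Rps2 had only 30 and 19 fragments and an interval that held 0. The classes rest on unequal counts, with a median of 350 young and 274 aged mono-nucleosome fragments per core gene, against 1359 and 967 of any length.

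**Figure D2:**
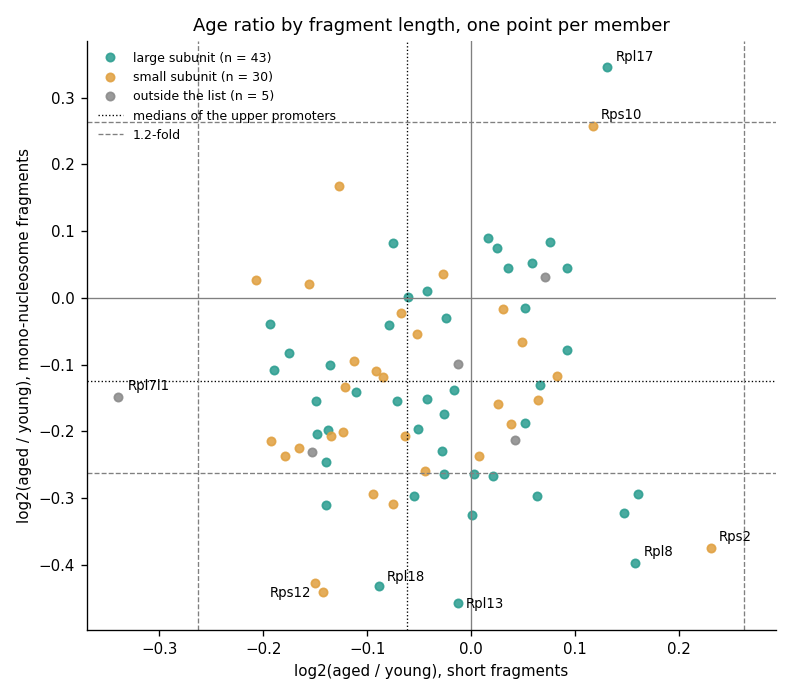
Log2(aged / young) of short fragments (x axis) against that of mono-nucleosome fragments (y axis), 1 point per member (43 large subunit, 30 small subunit, 5 outside the core list). Dashed lines mark 1.2-fold and dotted lines the medians of the upper promoters, −0.062 and −0.125. The cloud is wider along the y axis, with 17 points below the lower dashed line and 1 point, Rpl7l1, left of the left one.

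Around the principal start, short fragments formed a single peak and mono-nucleosome fragments a peak on each side of it. Midpoints were counted in bins of 10 bp over the 73 core genes, as a moving mean of 5 bins per promoter in FPM of the class. Short midpoints peaked at −25 bp in both libraries, at 1.11 in young cells and 1.07 in aged cells, against 0.896 and 0.860 at −45 bp over the upper promoters. The mono-nucleosome peak after the start stood at 135 bp in the young library (0.569) and 125 bp in the aged library (0.472), and the peak before the start at −175 bp (0.334) and −185 bp (0.287). Both mono-nucleosome peaks were lower in the aged library, and so were those of the upper promoters (0.388 and 0.340 after the start).

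The age difference in mono-nucleosome fragments was largest close to the start. Between 200 bp before the start and the start, the core genes held 6056 young and 4203 aged midpoints, a log2 ratio of −0.27 (−0.33 to −0.21), and the upper promoters had −0.19 (−0.197 to −0.184). In the first 200 bp after the start the ratios were −0.19 (−0.24 to −0.14) and −0.19, and from 500 to 1000 bp after it 0.012 (−0.077 to 0.10) and −0.022. Short fragments differed less close to the start. The core genes had −0.060 (−0.084 to −0.035) in the 200 bp before the start and −0.043 (−0.078 to −0.009) in the 200 bp after it, against −0.063 and −0.076 at the upper promoters. The largest short-fragment difference of the core genes, −0.091 (−0.14 to −0.040), lay from 500 to 200 bp before the start, against −0.060 at the upper promoters. The intervals cover counting error over the sum of promoters, and with 1 library per age the step between core genes and the upper promoters was not tested.

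**Figure D3:**
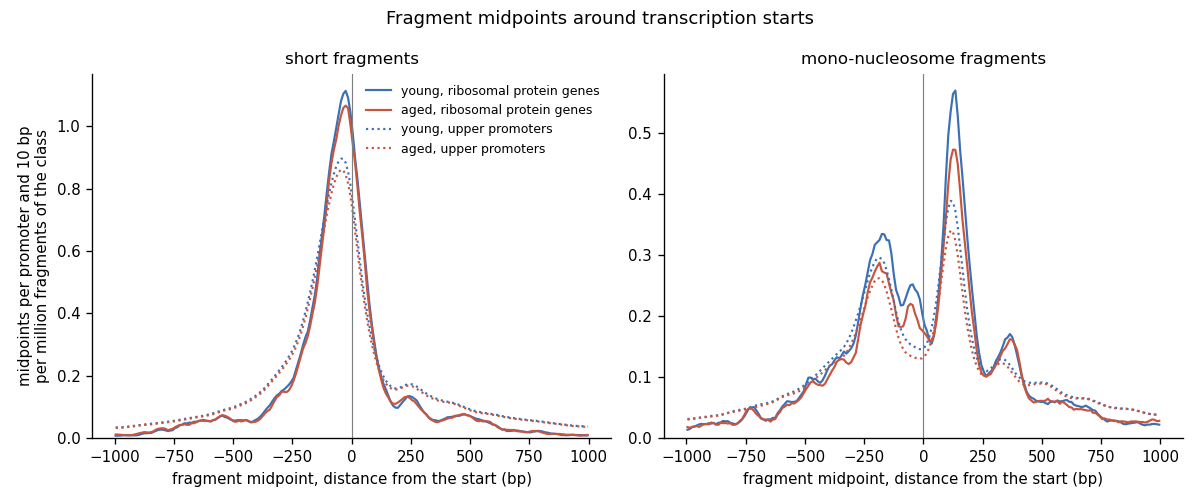
Midpoints of short (left) and mono-nucleosome fragments (right) by distance from the principal start (x axis, bp, negative before the start), per promoter and 10 bp in FPM of the class (y axis, moving mean of 5 bins). Solid lines are the 73 core genes, dotted lines the upper promoters, blue young and red aged. The short peak lies at −25 bp, and the mono-nucleosome peak after the start reaches 0.569 in young cells and 0.472 in aged cells.

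Single cells held few fragments at these genes, so the set was read as a sum. Each cell was thinned to 3000 autosomal fragments, which left out no cell. Which fragments a cell keeps is random, so the thinning was repeated for 20 draws, and values below are those of 1 draw with the lowest and highest of the 20 beside them. Young cells had a mean of 6.69 fragments at the 88 members (6.63 to 6.73 over the draws) and aged cells 6.21 (6.13 to 6.21), a difference of less than 1 fragment per cell, with the young mean the higher one in all 20. The median did not separate the libraries: it was 6 in aged cells in every draw, and in young cells 6 in 13 draws and 7 in 7, the draw shown among the latter. The ratio of variance to mean, which is 1 for random sampling, was 1.09 in young cells (1.08 to 1.17) and 1.10 in aged cells (1.02 to 1.13). More than 7 fragments were held by 35.9% of young cells (exact binomial 95% interval 34.6 to 37.3, draws 34.6 to 36.6) and 29.5% of aged cells (28.0 to 31.1, draws 27.4 to 29.6). No fragment at any member was found in 8 of 4887 young cells (2 to 15 over the draws) and 15 of 3405 aged cells (3 to 15). Unthinned, the median per 10000 fragments was 22.0 and 20.4.

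At equal depth a single member was seen in few cells. The share of cells with a fragment at a core gene had a median of 7.84% in young cells (7.67 to 8.25 over the draws) and 7.40% in aged cells (7.11 to 7.49). Rps19 was seen in 16.8% (exact interval 15.8 to 17.9, draws 16.4 to 18.4) of young and 15.0% (13.8 to 16.2, draws 13.8 to 15.5) of aged cells. Rpl13a was seen in 14.0% (13.1 to 15.0) and 12.5% (11.4 to 13.7), with draws of 12.5 to 14.0 and 11.5 to 13.1. Rpl37 was seen in 13.3% (12.4 to 14.3) and 13.5% (12.4 to 14.7), and since its draws ran from 13.0 to 14.7 and from 11.5 to 13.5, the higher aged share of the draw shown is the upper end of that range. Muscle Rpl3l was seen in 10 young cells (0.205%) and 4 aged cells (0.117%), with draws of 0.102 to 0.286% and 0.029 to 0.147%, as a level at a promoter outside its tissue. Cells were not treated as replicates.

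**Figure D4:**
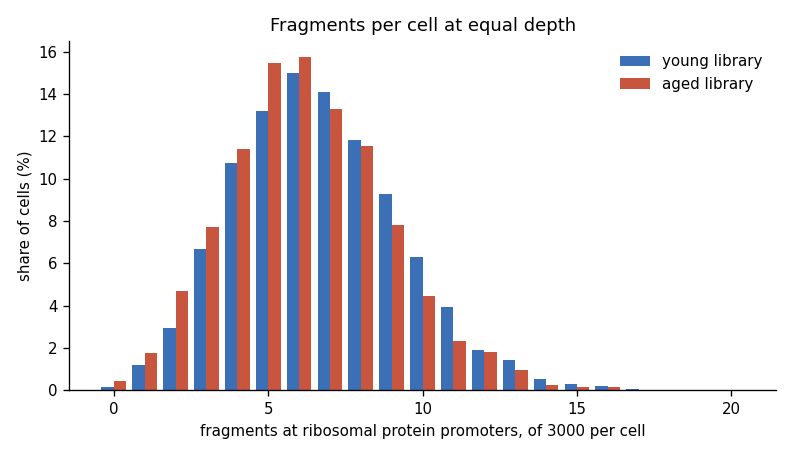
Share of cells (y axis, %) by the number of fragments at the 88 ribosomal protein promoters (x axis), of 3000 autosomal fragments drawn from each cell, for 4887 young (blue) and 3405 aged cells (red). Both libraries form 1 hump, with means of 6.69 and 6.21 fragments, and the aged hump lies slightly to the left (1 of 20 draws).

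Other genes of ribosome production and translation had medians in the same range. In fragments of any length, the median log2 ratio was −0.11 over 76 mitochondrial ribosomal protein genes (5 past 1.2-fold lower and 0 higher), −0.13 over 51 genes of RNA polymerase I and ribosome assembly (2 and 0), −0.10 over 16 translation factors with TOP mRNAs (1 and 0) and −0.11 over 9 regulators of ribosome synthesis (0 and 0). The first 3 lists thus had 6.58%, 3.92% and 6.25% past 1.2-fold lower. Of all promoters 7.65% were past it lower and 10.4% higher, and of the upper promoters 2.96% and 0.53%. Nucleolar Ncl and Npm1 gave 59.6 and 53.7 (−0.15, −0.23 to −0.069) and 45.9 and 40.6 (−0.18, −0.27 to −0.082). Myc, which drives ribosome synthesis, gave 46.6 and 44.0 (−0.084, −0.18 to 0.008), Mtor 38.4 and 35.7 (−0.11) and Larp1, which binds TOP mRNAs, 31.2 and 27.7 (−0.17, −0.29 to −0.057).

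Lists unrelated to the cytoplasmic ribosome lay there too, with −0.12 over 76 nuclear genes of oxidative phosphorylation (4 past 1.2-fold lower and 0 higher) and −0.090 over 334 Zfp genes (15 and 20). These counts are 5.26% lower for the former, and 4.49% lower and 5.99% higher for the Zfp genes, beside the shares of all and upper promoters just given. In mono-nucleosome fragments the medians were −0.15 for mitochondrial ribosomal proteins, −0.15 for polymerase I and assembly, −0.15 for translation factors, −0.061 for the regulators, −0.17 for oxidative phosphorylation and −0.094 for Zfp genes. The core ribosomal protein genes, at −0.15, thus stood among them.

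**Figure D5:**
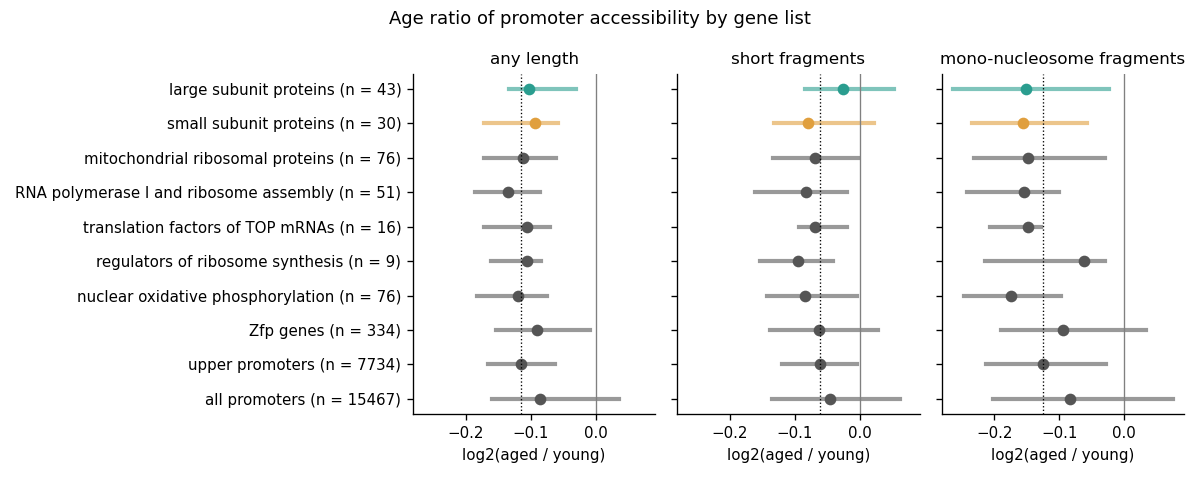
Median log2(aged / young) of each gene list (dots) with the quartiles over its promoters (bars), for fragments of any length, short fragments and mono-nucleosome fragments. The dotted line is the median of the upper promoters. In any length both ribosomal subunits (−0.10 and −0.094) and the 6 other gene lists plotted have medians left of 0, from −0.13 to −0.090, with the dotted line at −0.115.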

How the data were processed

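Single-cell ATAC-seq was measured in sorted HSCs of young and aged mice, 1 library each, and groups were taken from the sample labels. The authors ran Cell Ranger ATAC on mm10, which also drops duplicates and calls cells. The deposited files hold counts with no normalization: unique fragments with their barcode, and read pairs or fragments per barcode. Their further work used Signac. Here, called cells with 3000 to 20000 in-peak fragments per the deposited table were kept. Fragments with an end within 1 kb of a gene's 5′ end (GENCODE M21, GRCm38) were counted once per gene and scaled to autosomal fragments of the same length class. This gave 49049364 young and 37843997 aged fragments. Ratios carry a pseudocount of 1, and a gene needed 50 fragments over both libraries. Intervals are exact 95% (Poisson, Clopper-Pearson, order statistics for medians). They cover counting error or the spread over genes, never animals. The code was tested on simulated data.

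The members and gene lists were chosen with earlier results of these data known. Core genes were named by the 8 highest and 8 lowest ratios, the 5 highest and lowest levels, the 5 highest and lowest short shares and a list of known roles, and every member outside the core list was named. Some genes that this rule takes are not reported here. RefSeq promoters were matched by symbol for 53 core genes. Those unmatched included Rpl17, Rpl21, Rpl23a, Rpl29, Rpl3, Rpl30, Rpl32, Rpl36, Rpl7, Rpl8, Rplp1, Rps14, Rps20, Rps27a and Rps29. Of the alternatives, 18 were listed in advance, and the RefSeq start and the 20 repeated draws of the thinning were added after the data were seen. Doublets were not removed, and the authors' peak files were not used here. Python 3.11.15, numpy 2.4.6, pandas 2.3.3, scipy 1.17.1 and numba 0.67.0 were used.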

Additional observations from a re-analysis of the deposited data

How the results depend on the processing

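No paired analysis was possible because there was 1 library per age, and for the same reason no replicate could be left out. Over 19 alternatives the median log2 ratio of the members in fragments of any length ran from −0.12 to −0.0086. It was −0.060 scaled to fragments in the authors' peaks, −0.012 scaled to fragments at all promoters, −0.0086 centred on the median of all promoters, and −0.12 for barcodes within the depth limits whether or not called as cells. The short median reversed to 0.00088 scaled to fragments at all promoters and to 0.0029 centred on their median, as the construction of both implies, and was −0.076 without the cell call. The mono-nucleosome median was −0.072 and −0.069 under those scales. The counts past 1.2-fold, 0 in both directions above, became 1 higher with windows of 2000 bp, with fragments counted by midpoint, or without the cell call, and 4 with no minimum count. These are at most 1.28% and 4.55% of members, where 9.97 to 10.0% and 20.0% of all promoters were past it higher. In the other direction, 1 member was past it with windows of 500 bp, with all called cells, without the cell call, with cells of up to 12000 in-peak fragments, or at principal starts, 2 with windows of 2000 bp, 3 with the 1000 bp upstream only, 4 with no minimum count, and 6 with cells thinned to 3000 fragments. Of all promoters, 8.39%, 11.0%, 13.2% and 12.9% were past it in that direction under the last 4, against 7.65% in the main setting, and the members' shares, 2.41%, 3.95%, 4.55% and 7.89%, were lower. The upper promoters, where counting error is smaller and the share was 2.96% in the main setting, were not counted under these 4. With no minimum count, the members past 1.2-fold in either direction were all among the 10 with under 50 fragments. Apart from that and the alternative scales, whose shift is that of all promoters, the cause of these changes was not tested. The thinned values move with the random draw. The seed of the draw used here replaced an earlier one after the values of that one had been seen, for a reason unrelated to them, and 20 draws that include both were then compared. Over these, the medians ran from −0.13 to −0.080 in fragments of any length, −0.071 to −0.015 in short and −0.20 to −0.084 in mono-nucleosome fragments, 4 to 12 members were past 1.2-fold lower and 0 to 2 higher, and the per-cell young median was 6 or 7, so that neither that median nor the count of 6 is a stable value. The other medians kept their direction and stayed within the interval of the main value. Single members were less steady: of 78, 25 changed sign under either promoter scale and 10 with the authors' peaks as the scale, 15 of 76 did so in thinned cells, and 0 to 5 under each of the other alternatives. Depth limits single members: the interval of a core log2 ratio reached 0.12 to either side at the median, so a 1.2-fold difference, 0.26 on this scale, could be seen at a typical member, but a shift the size of the members' median could not.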

Other observations

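The X-linked ribosomal protein genes, left out by the rule, gave values in the range of the autosomal ones on the same scale of autosomal fragments. Rpl10, which completes the large subunit late in assembly, gave 27.5 young and 24.2 aged fragments per 1000000 (log2 ratio −0.18, 95% interval −0.31 to −0.062). Rpl36a gave 18.0 and 16.0 (−0.17, −0.32 to −0.015), Rpl39, at the exit of the peptide tunnel, 18.3 and 17.2 (−0.090, −0.24 to 0.057), and Rps4x 10.4 and 10.5 (0.017, −0.18 to 0.21). Of these 4, 3 were lower in the aged library and none was past 1.2-fold in fragments of any length.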
